A study of Mus musculus with 7 samples.

Results

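RNA of extracellular vesicles (EVs) was compared between RAW264.7 cells that carry a catalytically inactive Dis3l2 transgene and cells that carry an active one. The comparison has 1 library a side, 2 of the 7 libraries of the series, and these 2 were chosen by genotype. RAW264.7 is a mouse macrophage line. The active line is shDis3l2 + Dis3l2r, that is, a hairpin against Dis3l2 together with a hairpin-resistant Dis3l2. The inactive line is shDis3l2 + Dis3l2 D389N, whose genotype field reads Dis3l2r D389N; the name stands for an aspartate changed to asparagine at a catalytic residue. Both therefore carry the knockdown hairpin as well as a transgene. The other 3 vesicle libraries came from shNS (a non-silencing hairpin), shDis3l2 and shDis3l2 + Vector (an empty vector), and they serve here to place the pair. All cultures received 1 µg/mL doxycycline, vesicles were taken from medium conditioned for 24 h, and gradient-purified vesicles were digested with micrococcal nuclease before extraction. The sources used here do not give the promoter of the transgenes, their expression level or whether a line is 1 clone or a pool.

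Dis3l2 is an exoribonuclease that degrades RNA from the 3′ end, with a preference for RNA that terminal uridylyl transferases have tailed with uridines. It is known for removing uridylated let-7 precursors and a range of aberrant small noncoding RNAs, among them unprocessed or defective tRNAs and RNA polymerase III transcripts. Vesicles released by cells carry mainly short RNAs, and tRNAs are abundant among them. The libraries were made with a template-switching reverse transcriptase, which reads through structured RNAs such as tRNA.

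The table gives 1 estimated read count for each RNA and library. It has 580839 rows, most of them pieces of transcripts. Whole RNAs take up 3894, divided into Ensembl transcripts (3639), genes of tRNA (224), SINEs (15), tRNAs in spliced form (15) and 4.5S RNA (1). The D389N library held 20950531 counts on whole-RNA rows and the Dis3l2r library 13439408. The other 3 vesicle libraries held 18428621 to 25177102. Transcript rows above 0 numbered 504 in the deeper D389N library and 568 in Dis3l2r, against 553 to 579 in the others. None of the 3639 transcript IDs is paired with a gene name (0 matched), so the level of Dis3l2 itself and the macrophage markers were not checked here.

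A ratio below is the log2 of D389N over Dis3l2r, with a 95% interval that covers counting error only. With 1 library a side no test of the condition exists, and differences between cultures and between conditions cannot be told apart. In bulk vesicle RNA, fewer vesicles of a type and less RNA in each cannot be told apart either. An RNA counted as measured with at least 100 counts over both libraries. It passed the rule of size when it also differed at least 2-fold, with an interval that excluded no change. Ratios and levels (CPM, counts per 1000000) were scaled by TMM, the trimmed mean of M values. The plain library totals give ratios that are lower by 0.45 on the log2 scale throughout. They are given beside the main results, and elsewhere a TMM ratio between 0 and 0.45 lies below 0 by totals.

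Across whole RNAs, tRNA rows stood higher than transcript rows in D389N relative to Dis3l2r. Of 379 measured rows, 26 were at least 2-fold higher in D389N (6.86% called) and 61 at least 2-fold lower (16.1% called). By totals the numbers were 8 higher (2.11%) and 105 lower (27.7%), by TMM over the pair alone 10 and 83, and by totals of the exon pieces 73 and 37. The median of all measured rows was 0.10 by TMM and -0.35 by totals.

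The tRNA rows made up most of the higher calls. Of 161 measured tRNA rows, 17 were higher (10.6%) and 4 lower (2.48%), with a median of 0.48. By totals 5 were higher and 7 lower, and the median was 0.03. The transcripts made up nearly all lower calls: of 196 measured, 7 were higher and 56 lower (28.6%), with a median of -0.54, and by totals 3 were higher and 93 lower with a median of -0.99. The gap between the medians of tRNA and transcript rows does not depend on the scaling and came to 1.01 on the log2 scale. It was 0.96 with a minimum of 20 counts, 0.70 with a minimum of 500 and 0.85 with none.

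**Figure D1:**
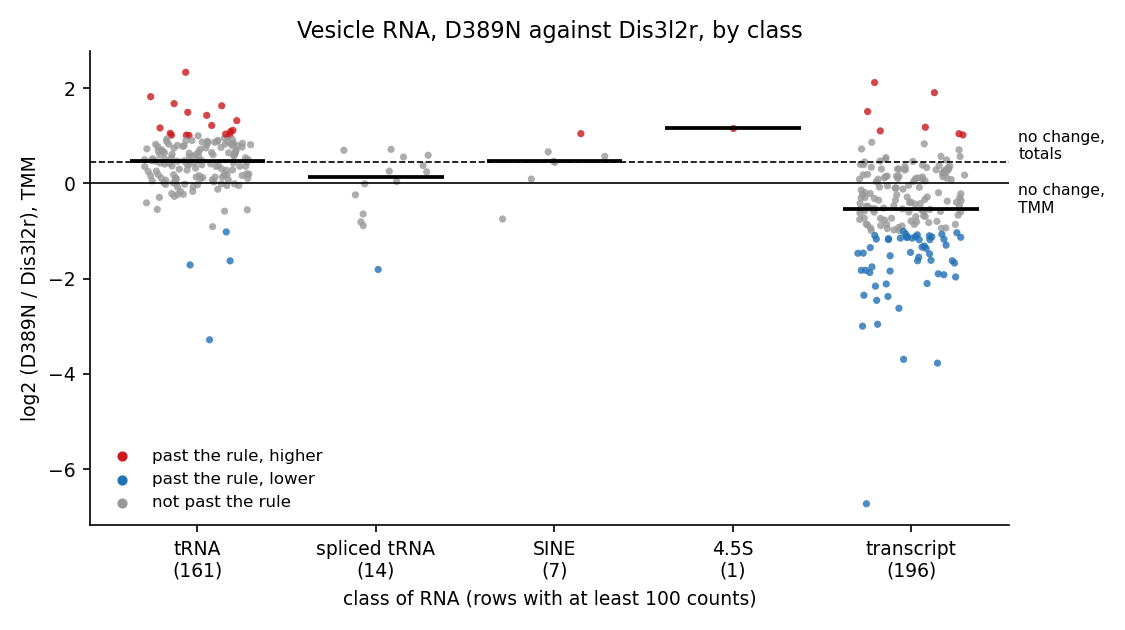
Each point is 1 whole RNA with at least 100 counts over both libraries, and its height is the TMM-scaled log2 ratio of D389N over Dis3l2r. Black bars are class medians, the solid line marks no change by TMM and the dashed line no change by library totals; 1 transcript at 0 counts in D389N is not drawn. The tRNA median lies at 0.48 and the transcript median at -0.54.

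A pair of comparisons that share no library with this one gives a scale for these numbers. In vesicles of shDis3l2 against shNS, 29 of 411 measured rows were higher (7.06%) and 17 lower (4.14%). In vesicles of Vector against shDis3l2, which both carry the hairpin and no active transgene, 35 of 393 were higher (8.91%) and 58 lower (14.8%). In that last pair 27 of 170 tRNA rows were higher and 2 lower, with a median of 0.35, and 8 of 202 transcripts were higher and 56 lower, with a median of -0.66. By totals the lower transcripts were 62 of 202 there and 93 of 196 between D389N and Dis3l2r. In shDis3l2 over shNS the medians were -0.01 for tRNA rows and 0.13 for transcripts.

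Class shares need no scaling between libraries. Named tRNA rows held 74.1% of whole-RNA counts in D389N and 69.5% in Dis3l2r, and transcript rows held 16.7% and 24.5%. The transcript share was 20.0% in shNS, 22.2% in shDis3l2 and 16.6% in Vector. Dis3l2r was the highest of the 5 libraries on all transcript rows, with D389N and Vector the lowest. Per 100 tRNA counts there were 22.3 transcript counts in D389N and 34.9 in Dis3l2r, with 26.7 in shNS, 31.3 in shDis3l2 and 21.6 in Vector. A single transcript row, the most counted one in whole cells, held much of that gap: it stood at 40269 CPM in D389N and 73721 CPM in Dis3l2r, a ratio of -0.87 (95% interval -0.88 to -0.87). Without it, the transcript share was 13.8% in D389N and 17.7% in Dis3l2r, against 15.5% in shNS, 19.4% in shDis3l2 and 14.9% in Vector. Per 100 tRNA counts there were then 17.9 transcript counts in D389N and 23.1 in Dis3l2r, with 19.6 in shNS, 26.4 in shDis3l2 and 18.9 in Vector. On both measures shDis3l2 was then the highest library and D389N the lowest. The tRNA shares without that row nearly met, at 76.6% in D389N and 75.8% in Dis3l2r. They were 78% in shNS, 72.4% in shDis3l2 and 77.4% in Vector.

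The most counted RNA past the rule was 4.5S RNA, which rodents make with RNA polymerase III. Its level was 44302 CPM in shNS, 66150 CPM in shDis3l2, 63366 CPM in Vector, 44954 CPM in Dis3l2r and 100707 CPM in D389N. The 3 libraries without an active Dis3l2 were all above the 2 with one. This class was assigned here from the genotypes, and native Dis3l2 left under the hairpin was not checked. The ratio of D389N over Dis3l2r was 1.16 (95% interval 1.16 to 1.17). By totals it was 0.71 and below 2-fold. The order does not rest on the scaling: per 100 tRNA counts there were 6.37 4.5S counts in shNS, 9.43 in shDis3l2, 8.13 in Vector, 7.21 in Dis3l2r and 11.1 in D389N. By TMM, 53 of all 379 measured rows had the 3 libraries without active Dis3l2 above both with it (14.0%) and 60 had them below both (15.8%).

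**Figure D2:**
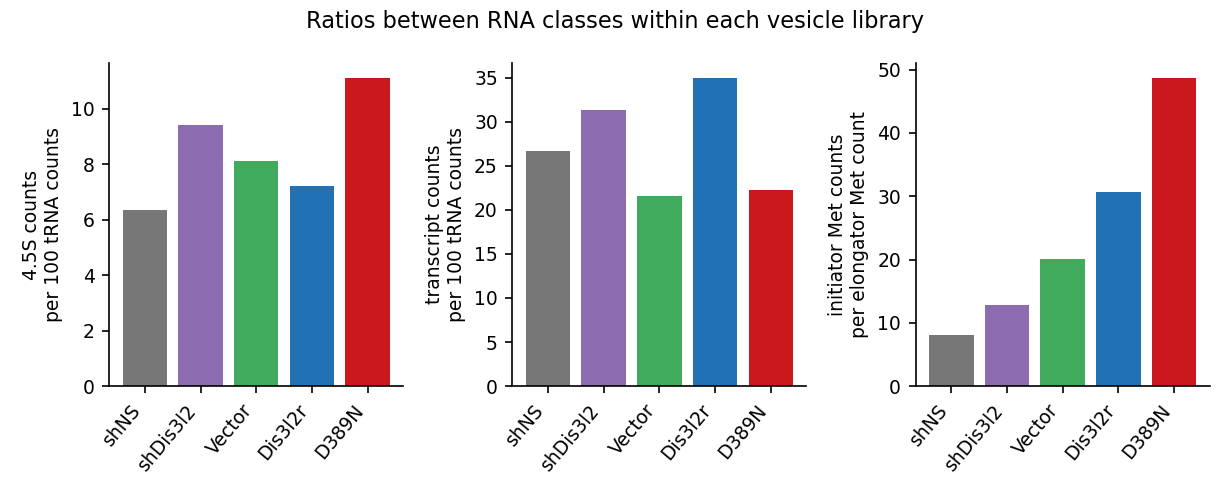
Bars give, for each of the 5 vesicle libraries, the 4.5S counts and the transcript counts per 100 tRNA counts and the initiator methionine counts per elongator methionine count (1 library each, no error bars). D389N has the most 4.5S per tRNA (11.1) and the highest initiator ratio (48.6), and Dis3l2r the most transcript counts per tRNA (34.9); without the most counted cell row, which is not drawn apart, shDis3l2 (26.4) is above Dis3l2r (23.1).

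Several tRNA genes stood far above Dis3l2r in the D389N library. By TMM, D389N was the highest of the 5 libraries in 68 of the 161 measured tRNA rows and in 102 of all 379 measured rows (26.9%). These counts lean on the scaling and were not made by totals. D389N had the smallest TMM factor, 0.824 against 0.987 to 1.126, which raises all its levels relative to the other libraries. The Ala-CGC family, for example, had its highest CPM in D389N but its smallest share of tRNA counts. D389N was the highest in 13 of the 17 higher tRNA rows, which were picked for D389N standing above Dis3l2r, so nothing is read from that count. Near-identical tRNA genes share reads, so the split of counts between members of 1 family is an estimate of the quantifier and is uncertain.

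tRNA-Ser-TGA-2-1, a serine tRNA, was at 2065 CPM in shNS, 2802 CPM in shDis3l2, 3056 CPM in Vector, 4310 CPM in Dis3l2r and 13334 CPM in D389N. D389N was clear of the other 4, and Dis3l2r was the highest of those. The ratio was 1.63 (95% interval 1.62 to 1.64) and 1.18 by totals. tRNA-Gly-GCC-3-1, a glycine tRNA, was at 599 CPM in shNS, 920 CPM in shDis3l2, 1368 CPM in Vector, 1294 CPM in Dis3l2r and 4129 CPM in D389N, a ratio of 1.67 and 1.22 by totals. Here too D389N alone was high. The gene held 13.4% of its family's counts in D389N and 6.53% in Dis3l2r, while tRNA-Gly-GCC-4-1 of the same family held 51.3% and 58.8%.

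tRNA-iMet-CAT-3-1, 1 of 3 initiator methionine tRNA genes, had the largest ratio of any measured RNA at 2.33 (95% interval 1.77 to 2.97), on 197 counts. It was at 4.12 CPM in shNS, 1.75 CPM in shDis3l2, 1.77 CPM in Vector, 1.94 CPM in Dis3l2r and 9.75 CPM in D389N. The row held 0.014% of its family's counts in D389N. tRNA-Leu-CAG-3-1, a leucine tRNA, was as thinly covered, with 116 counts and a ratio of 1.82 (95% interval 1.15 to 2.55). Its levels were 1.55 CPM in shNS, 1.71 CPM in shDis3l2, 0.75 CPM in Vector, 1.53 CPM in Dis3l2r and 5.40 CPM in D389N. Both stood highest in D389N.

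In other tRNA rows past the rule Dis3l2r was low rather than D389N high. tRNA-Ser-GGA-1-1 was at 27.9 CPM in shNS, 34.7 CPM in shDis3l2, 43.1 CPM in Vector, 10.2 CPM in Dis3l2r and 27.4 CPM in D389N, a ratio of 1.43. tRNA-Met-CAT-6-1, an elongator methionine tRNA, was at 26.3, 36.9, 28.0, 10.4 and 26.0 CPM in the same order, a ratio of 1.32. tRNA-His-GTG-3-1 was at 13.8, 8.99, 20.6, 2.96 and 6.63 CPM, a ratio of 1.16. In these 3 rows D389N was the fourth of the 5 libraries and Dis3l2r the lowest. By totals their ratios were 0.98, 0.87 and 0.71, so none of the 3 reached 2-fold.

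tRNA-Ala-AGC-8-1, an alanine tRNA, and tRNA-Lys-TTT-5-1, a lysine tRNA, were the only rows past the rule in the same upward direction in shDis3l2 over shNS. The alanine row was at 63.3 CPM in shNS, 141 CPM in shDis3l2, 258 CPM in Vector, 61.8 CPM in Dis3l2r and 174 CPM in D389N, so the 2 libraries with active Dis3l2 were the lowest. Its ratio was 1.49 in D389N over Dis3l2r (1.04 by totals) and 1.16 in shDis3l2 over shNS. The lysine row was at 19.6, 55.6, 29.4, 41.4 and 96.2 CPM in the same order, with ratios of 1.22 (0.77 by totals) and 1.51, but Dis3l2r lay above Vector. Of 371 rows measured in both pairs, 2 were called higher in both, 8 lower in both and 7 in opposite directions. The 8 lower in both were all transcripts. Ratios had the same sign in 58.6% of the rows, 53.5% of tRNA rows and 61.9% of transcripts.

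Of rows other than transcripts, 5 passed the rule as lower in D389N by TMM, 4 of 161 measured tRNA rows and 1 of 14 spliced rows. By totals 7 tRNA rows, 4 spliced rows and 1 SINE row passed. tRNA-Arg-TCT-5-1, an arginine tRNA gene with an intron, had the largest difference. Its level was 3.95 CPM in shNS, 5.05 CPM in shDis3l2, 11.6 CPM in Vector, 9.16 CPM in Dis3l2r and 0.94 CPM in D389N, a ratio of -3.28 (95% interval -4.16 to -2.56) on 155 counts. Its spliced form was lower as well, at 39.5 CPM in shNS, 25.2 CPM in shDis3l2, 47.0 CPM in Vector, 32.2 CPM in Dis3l2r and 9.18 CPM in D389N, a ratio of -1.81 (95% interval -2.08 to -1.55). Both rows were lowest in D389N, and the other Arg-TCT genes did not share it: tRNA-Arg-TCT-1-1, tRNA-Arg-TCT-2-1 and tRNA-Arg-TCT-3-1 had ratios of 0.26, 0.41 and 0.18. By totals these 3 ratios were -0.19, -0.04 and -0.27.

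tRNA-Met-CAT-4-1 had a ratio of -1.71, tRNA-His-GTG-1-1 of -1.63 and tRNA-Tyr-GTA-4-1 of -1.02. The histidine row was highest in Dis3l2r (25.8 CPM) and lowest in D389N (8.34 CPM), with 12.2 to 19.0 CPM in the other 3. The methionine row was no lower in D389N (2.92 CPM) than in shNS (2.65 CPM) and stood higher in Dis3l2r (9.59 CPM) and Vector (11.1 CPM).

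**Figure D3:**
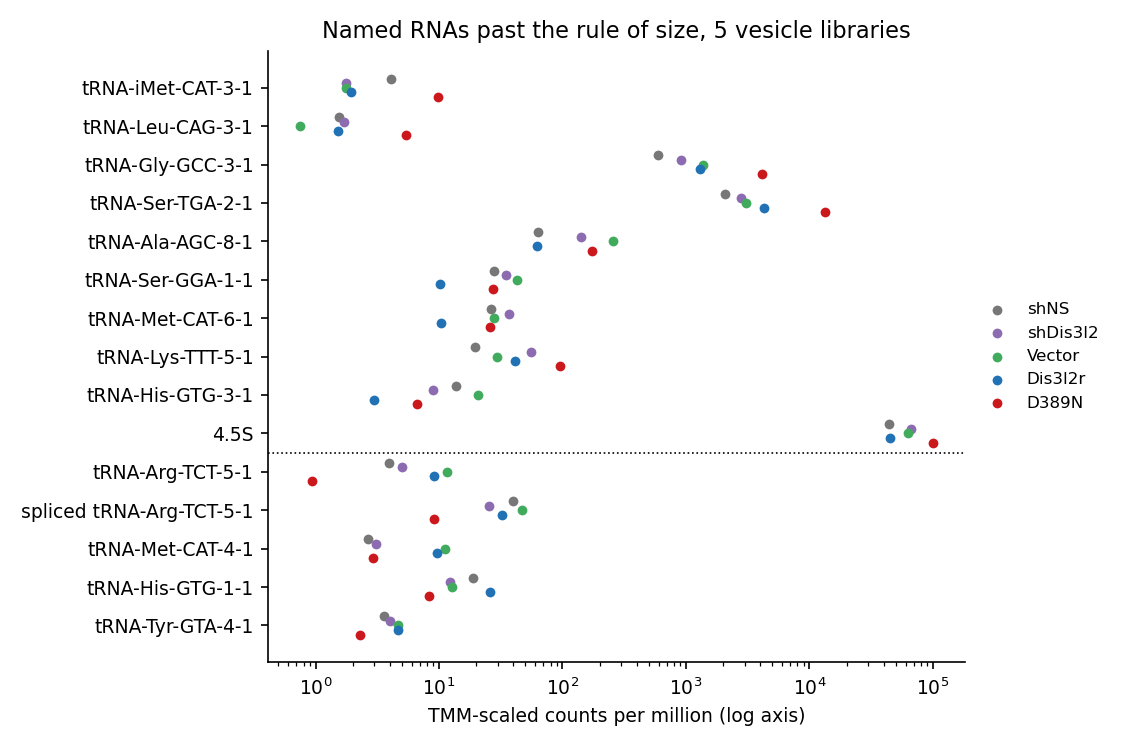
TMM-scaled CPM on a log axis for the 10 largest rises (above the dotted line) and all 5 falls (below it) past the rule of size. Only RNAs other than transcripts are drawn, with 1 point for each vesicle library. D389N stands apart on the right for tRNA-Ser-TGA-2-1 (13334 CPM) and tRNA-Gly-GCC-3-1 (4129 CPM) and on the left for tRNA-Arg-TCT-5-1 (0.94 CPM), while Dis3l2r is the low library for tRNA-Ser-GGA-1-1 (10.2 CPM).

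The most counted tRNAs differed less. tRNA-Gly-TCC-1-1, the most counted RNA of the pair, was at 165901 CPM in shNS, 198454 CPM in shDis3l2, 175931 CPM in Vector, 131940 CPM in Dis3l2r and 138974 CPM in D389N. The transgene pair was lowest, and its ratio was 0.07 by TMM and -0.37 by totals. The initiator methionine gene tRNA-iMet-CAT-1-1 was at 21266 CPM in shNS, 31158 CPM in shDis3l2, 46435 CPM in Vector, 39467 CPM in Dis3l2r and 69722 CPM in D389N, a ratio of 0.82 (0.37 by totals), which is under 2-fold. tRNA-Cys-GCA-3-1 had a ratio of 0.88, tRNA-Arg-CCG-2-1 of 0.74, tRNA-Glu-CTC-1-1 of 0.64, tRNA-Arg-CCG-3-1 of 0.60 and tRNA-Pro-CGG-1-1 of 0.51, all above 0 by totals too. tRNA-Pro-TGG-2-1 (0.41) and tRNA-Lys-CTT-3-1 (0.37) were at -0.04 and -0.08 by totals. None of these abundant tRNAs passed the rule.

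Initiator and elongator methionine tRNAs carry the same amino acid but serve the start of translation and its later steps. Their ratio within a library needs no scaling. Initiator counts per elongator count were 48.6 in D389N and 30.7 in Dis3l2r, against 20.1 in Vector, 12.8 in shDis3l2 and 8.01 in shNS. The 3 lines with a vector or a transgene were above the 2 without. D389N was above Dis3l2r and shDis3l2 above shNS, while Vector was below Dis3l2r. What set this order was not tested. In whole cells the ratio was 3.46 for shNS and 4.78 for shDis3l2.

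Summing genes into anticodon families removes the uncertain split between copies. Of 49 measured families, 5 were at least 2-fold higher in D389N (10.2%) and 0 lower (0%). These were Ser-TGA (1.45), Ser-GGA (1.43), Leu-CAG (1.09), SeC-TCA (1.01), whose tRNA carries selenocysteine, and Gln-TTG (1.01). All 49 lay above 0 by TMM, and by totals 30 lay above and 19 below. By totals 1 family passed, Ser-TGA at 1.00.

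Shares of all tRNA counts show how the tRNA mixture differed, free of scaling. Ser-TGA made up 0.503% of tRNA counts in shNS, 0.690% in shDis3l2, 0.682% in Vector, 0.963% in Dis3l2r and 1.81% in D389N. Ser-GGA made up 0.0041% in shNS, 0.0050% in shDis3l2, 0.0056% in Vector, 0.0017% in Dis3l2r and 0.0030% in D389N. Its D389N share was thus below those of shNS, shDis3l2 and Vector. Leu-CAG made up 2.31% in D389N and 1.10% to 1.57% in the other 4, SeC-TCA 2.71% and 1.31% to 1.96%, and Gln-TTG 2.87% and 1.21% to 2.10%. These families went the other way in shDis3l2 over shNS, with TMM ratios of -0.44 for Leu-CAG, -0.54 for SeC-TCA and -0.43 for Gln-TTG. Ser-TGA and Ser-GGA were at 0.47 and 0.31 there. Gly-TCC had its smallest share in D389N, with 24.3% in shNS, 28.7% in shDis3l2, 22.9% in Vector, 21.4% in Dis3l2r and 15.5% in D389N. D389N had the largest share of the 5 libraries in 21 of the 49 families and the smallest in 15, so it stood at an end of the range in most. At the low end of the ratios were Trp-CCA (0.00), Gly-TCC (0.07), Asp-GTC (0.09) and the elongator family Met-CAT (0.16).

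**Figure D4:**
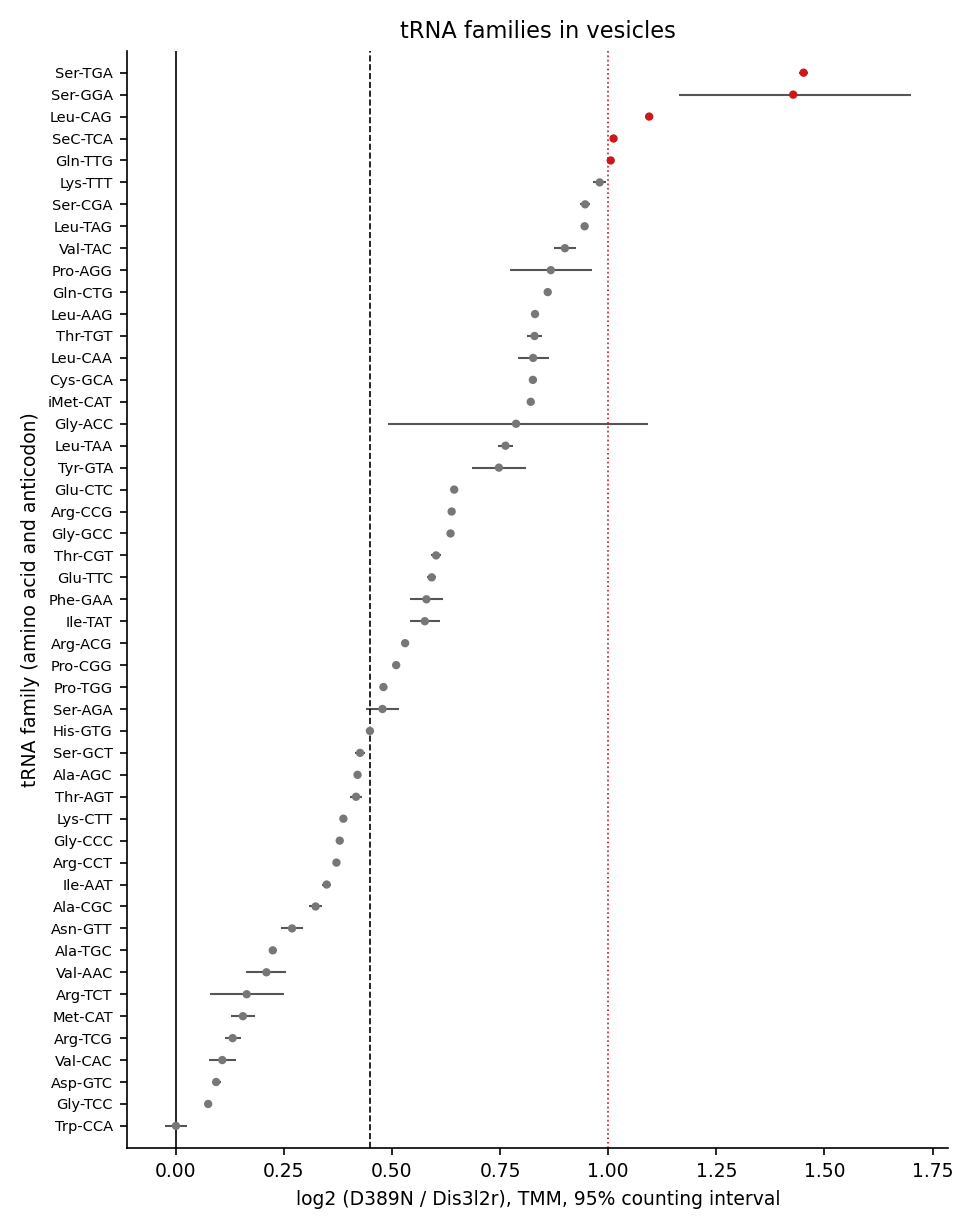
Points give the TMM-scaled log2 ratio of D389N over Dis3l2r for each of 49 anticodon families, with 95% intervals that cover counting error only; the solid line is no change by TMM, the dashed line no change by totals and the dotted line 2-fold. Ser-TGA (1.45) and Ser-GGA (1.43) lie farthest to the right and Trp-CCA (0.00) farthest to the left.

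By amino acid the highest ratios were selenocysteine (1.01), serine (0.97), leucine (0.93) and glutamine (0.91), and the lowest tryptophan (0.00), aspartate (0.09), elongator methionine (0.16) and glycine (0.18). Serine and leucine tRNAs have a long variable arm and are mostly the longer tRNAs. RefSeq (GRCm38.p6) gave gene lengths for 47 of the 49 families. The 8 intron-free leucine and serine families with genes of 82 to 83 bases had a median ratio of 0.89 (0.43 to 1.45), and 6 of the 8 gained share of tRNA counts. The 35 intron-free families with a shorter median gene length, Ser-GGA among them, had a median of 0.48 (0.00 to 1.43), and 15 of the 35 gained share. In shDis3l2 over shNS the medians were 0.22 (-0.44 to 0.59) and -0.13 (-0.49 to 0.51), so the ranges overlapped almost fully. Of the longer families, Leu-AAG (-0.10), Leu-CAG (-0.44) and Leu-TAA (-0.15) lay below 0 there. Leu-TAG and the serine families lay above 0. This grouping was made after the family values were seen and has no test.

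Transcripts of tRNA genes with an intron must be spliced, and the table holds rows for both the gene (unspliced) and the spliced RNA in 4 families. All gene rows of these families are called unspliced here, 24 rows beside 15 spliced ones. Whether each of these genes has an intron was not checked. RefSeq genes of Arg-TCT span 74 to 87 bases, so some of its gene rows may hold no intron. In Tyr-GTA the unspliced rows held 62.9% of the counts in D389N (95% interval 62.0% to 63.9%) and 45.6% in Dis3l2r (44.4% to 46.8%), with 24.6% in shNS, 34.4% in shDis3l2 and 42.8% in Vector. In Ile-TAT they held 78.7% in D389N (78.1% to 79.2%) and 69.6% in Dis3l2r (68.9% to 70.3%), with 58.4% in shNS, 80.9% in shDis3l2 and 83.2% in Vector. The 3 libraries without active Dis3l2 were thus above both with it in Ile-TAT, but not in Tyr-GTA, where Dis3l2r lay above Vector and shDis3l2.

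Leu-CAA had 16.5% unspliced in D389N and 14.4% in Dis3l2r, above the 8.24% in shNS, 9.49% in shDis3l2 and 11.2% in Vector. Arg-TCT showed no such difference, with 6.01% (5.79% to 6.24%) in D389N and 6.10% (5.84% to 6.37%) in Dis3l2r. Over all 4 families the share was 24.1% in D389N and 21.0% in Dis3l2r, against 12.5% in shNS, 21.5% in shDis3l2 and 20.8% in Vector. Unspliced and spliced rows of a gene share the exon sequence, so these shares rest on reads that the quantifier could place.

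**Figure D5:**
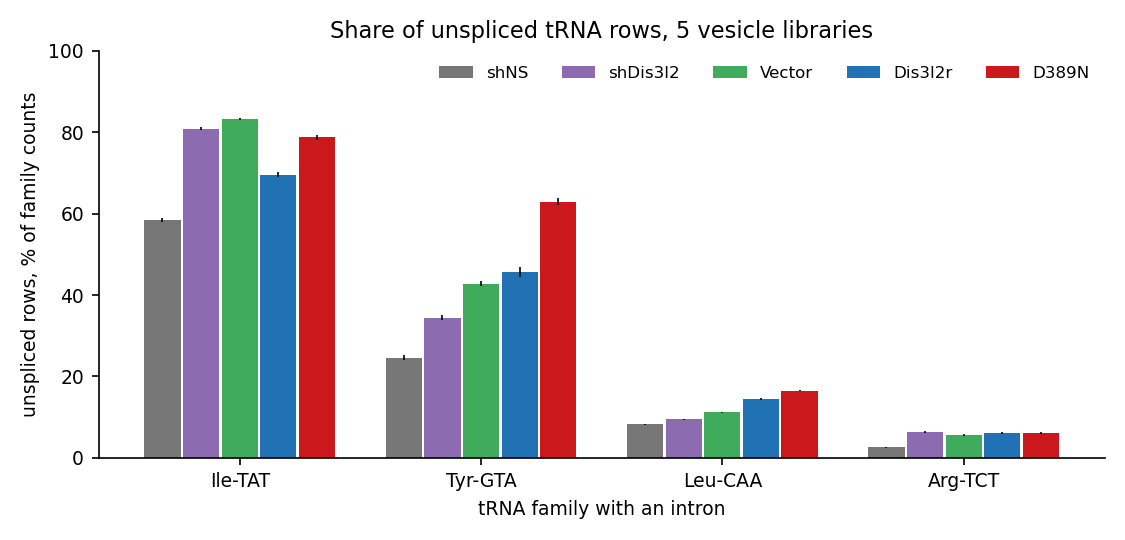
Bars give the counts on unspliced rows (all gene rows of the family) as a percent of all counts of the family. They are shown for the 4 tRNA families with an intron and the 5 vesicle libraries. Error bars are 95% binomial intervals that cover counting error only. The D389N bar is above the Dis3l2r bar in Ile-TAT (78.7% and 69.6%), Tyr-GTA (62.9% and 45.6%) and Leu-CAA (16.5% and 14.4%) and level with it in Arg-TCT (6.01% and 6.10%).

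Single unspliced rows varied within a family. Of 19 measured, 1 was higher (tRNA-Leu-CAA-3-1, 1.05) and 2 lower, with a median of 0.27 by TMM and -0.18 by totals. tRNA-Tyr-GTA-2-1 (1.00), tRNA-Tyr-GTA-1-4 (0.93) and tRNA-Tyr-GTA-3-1 (0.87) were near 2-fold, and tRNA-Tyr-GTA-3-2 was at 0.00 (-0.45 by totals). Among the spliced Tyr-GTA rows, spliced tRNA-Tyr-GTA-2-1 lay at 0.71 and the spliced forms of genes 1-1, 3-1 and 4-1 at -0.81, -0.64 and -0.89. Over the 14 measured spliced rows 0 were higher and 1 lower, with a median of 0.14, or -0.31 by totals with 4 lower. The spliced leucine rows lay between 0.38 and 0.70 and the spliced isoleucine rows at -0.24 and -0.01.

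SINEs are short repeats copied from small RNA polymerase III transcripts, B1 from the signal recognition particle RNA and B2 from a tRNA. Of 15 SINE rows 7 were measured, 1 higher and 0 lower, with a median of 0.46 (0.01 by totals). The most counted, the second SINE_B1_Mus2 row, was at 923 CPM in shNS, 742 CPM in shDis3l2, 1400 CPM in Vector, 1437 CPM in Dis3l2r and 2129 CPM in D389N, a ratio of 0.57. SINE_B2 was at 152, 244, 205, 156 and 166 CPM in the same order, a ratio of 0.09 by TMM and -0.36 by totals. The row past the rule was SINE_B2_Mm2, at 3.84, 6.49, 9.29, 5.62 and 11.6 CPM, a ratio of 1.04 (95% interval 0.67 to 1.43) on 285 counts. SINE_B1 (0.44), SINE_B4 (0.66) and the first SINE_B1_Mus2 row (0.46) were below 2-fold and SINE_B1_Mm was at -0.75. Counts of 8 SINE rows, 4 of them measured, matched those of a transcript row to within 1 count in all 7 libraries, and these rows were kept in both classes.

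Below the minimum of 100 counts a few SINE rows differed widely. SINE_ID had 50.7 counts in D389N and 2.36 in Dis3l2r, with 0 in shNS and shDis3l2. SINE_B3 (the second row) had a ratio of 2.72 and SINE_B1_Mur3 of 2.84, while SINE_B1_Mur4 (-1.67) and RSINE1 (-0.83) lay below 0. These rest on 46 to 91 counts each.

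The transcripts lower in D389N were mostly thinly counted. The median was -0.86 in the 65 transcripts with fewest counts (100 to 242), -0.56 in the 65 with more (247 to 966) and 0.05 in the 66 with most, and the lower calls were 29, 20 and 7. The tRNA medians rose with counts as well. The median was 0.18 in the 54 tRNA rows with fewest counts (109 to 4526). It was 0.40 in the 53 with more and 0.65 in the 54 with most. The lower tRNA calls were 4, 0 and 0, and the higher calls 8, 1 and 8. D389N is the deeper library, and the part of depth in this was not tested. The part of count level in the gap between tRNA and transcript rows was not tested either. The lower transcripts were also unevenly spread over the ratio of vesicle to cell level in shNS. Over its quartiles of 49 transcripts, from cell-rich to vesicle-rich, the medians were 0.13, -0.86, -1.15 and 0.03. The lower calls were 2, 17, 29 and 8. For tRNA rows in the same order the medians were 0.30, 0.37, 0.50 and 0.67. Their lower calls were 3, 0, 0 and 1. By totals the transcript medians were -1.31, -1.01 and -0.40 by count and -0.32, -1.31, -1.60 and -0.42 over the quartiles. The tRNA medians by totals were -0.27, -0.05 and 0.20 by count and -0.15, -0.07, 0.05 and 0.22 over the quartiles. By TMM, D389N was the lowest of the 5 libraries in 35 of the 196 measured transcripts, Vector the lowest in 99 and Dis3l2r the highest in 70. Of the 56 lower transcripts D389N was the lowest of the 5 libraries in 27, Vector the lowest in 25 and Dis3l2r the highest in 30; these 56 were picked by the ratio of D389N to Dis3l2r, so nothing is read from those counts. Over all 379 measured rows D389N was the lowest in 14.5%, Dis3l2r the highest in 19.3% and Vector the lowest in 104 rows.

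By count, ENSMUST00000101806 led the lower transcripts, at 488 CPM in shNS, 699 CPM in shDis3l2, 601 CPM in Vector, 620 CPM in Dis3l2r and 289 CPM in D389N, a ratio of -1.10 (95% interval -1.15 to -1.05). Here D389N alone was low. ENSMUST00000157629 was at 180, 184, 75.0, 242 and 47.4 CPM in the same order, a ratio of -2.35 (95% interval -2.46 to -2.24), with D389N and Vector both low. A transcript with 105 counts in Dis3l2r had 0 in D389N, which is at least 40.1-fold lower with 3 counts as the limit for 0. Leading the 7 higher transcripts was ENSMUST00000179419, at 541, 662, 1099, 331 and 750 CPM, a ratio of 1.18 (95% interval 1.13 to 1.23), with Dis3l2r the lowest and Vector the highest. ENSMUST00000157400 was at 45.03, 65.7, 57.3, 61.5 and 132 CPM, a ratio of 1.10 (95% interval 0.99 to 1.21), with D389N alone high.

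The exon, intron and UTR pieces were compared as separate sets, each scaled by its own total. On these scales exon pieces and UTR pieces leaned towards D389N and intron pieces towards Dis3l2r. Of 419 measured exon pieces 134 were higher in D389N (32.0%) and 40 lower (9.55%), with a median of 0.55. The 54 exon pieces with at least 500 counts did not lean that way: 6 were higher and 8 lower, with a median of -0.32. Of 11071 intron pieces 697 were higher (6.30%) and 4154 lower (37.5%), with a median of -0.68. Of 1739 UTR pieces 591 were higher (34.0%) and 167 lower (9.60%), with a median of 0.54. The 1569 UTR pieces that do not repeat a transcript with a whole-RNA row gave 586 higher (37.3%) and 107 lower (6.82%). The other 170 gave 5 higher (2.94%) and 60 lower (35.3%), with a median of -0.62. For shDis3l2 over shNS, exon pieces gave 109 higher (24.7%) and 31 lower (7.01%), and intron pieces 706 (6.96%) and 2103 (20.7%). UTR pieces gave 190 (14%) and 174 (12.8%). For Vector over shDis3l2, exon pieces gave 46 (10%) and 71 (15.5%), and intron pieces 649 (7.64%) and 1256 (14.8%). UTR pieces gave 307 (20.5%) and 160 (10.7%). Intron pieces thus leaned lower in both of these pairs too.

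The totals behind these sets lean on a few pieces. The 10 most counted intron pieces held 57.1% of the set's counts in D389N and 39.3% in Dis3l2r. Leaving them out of the total moved the intron calls to 1493 higher and 2390 lower and the median to -0.18. The 10 most counted UTR pieces held 75.9% in D389N and 78.8% in Dis3l2r. Without them the UTR calls were 486 higher and 205 lower, with a median of 0.36. For exon pieces the 10 most counted held 16.8% and 23.4%. Without them the exon calls were 123 higher and 50 lower, with a median of 0.44. Of these sets 3 intron pieces and 1 UTR piece carried nearly the counts of a named tRNA gene (within 5% in all vesicle libraries): tRNA-iMet-CAT-1-1, tRNA-Gly-CCC-3-1, tRNA-Leu-CAG-2-1 and, in the UTR set, tRNA-Gly-CCC-1-1. The 3 intron pieces alone made up 18.2% of intron counts in D389N and 12.5% in Dis3l2r. With the TMM scale of the whole RNAs, 98 exon pieces were higher and 63 lower, 1042 and 3152 intron pieces, and 633 and 152 UTR pieces. The medians were then 0.21 for exon, -0.42 for intron and 0.62 for UTR pieces. By whole-RNA totals the exon median lies below 0, so the direction of the exon lean depends on the scaling. The exon set held 275220 counts in the deeper D389N library and 305591 in Dis3l2r.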

How the data were processed

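The authors deposited 1 table of estimated counts (expected counts, as Salmon gives) for 7 libraries, with no scaling. The submitters' processing notes name Salmon, Novoalign, UMI-tools and cutadapt, and the builds mm10 and GRCm38. Tool versions, the order of steps and any deduplication: not given in the sources used here. Adapters carried random bases for deduplication, per the labels' protocols.

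Columns were matched to samples by title. The 3894 whole-RNA rows formed the main set, and exon, intron and UTR pieces formed sets of their own, since the sets overlap. Counts were rounded. TMM factors over the 5 vesicle libraries came from edgeR 4.0.16 (0.824 for D389N and 1.126 for Dis3l2r), which served only for scaling, as did DESeq2 1.42.0. Each ratio has an exact conditional binomial (Clopper-Pearson) 95% interval. Floors for 0 are 3 counts. Intervals cover counting error only, since 1 library a side gives no replicate check. Depth was 13439408 to 25177102 whole-RNA counts for a vesicle library. The code was tested on simulated data in which the most counted rows were held unchanged. That test does not show how TMM behaves where such rows differ.

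Among RNAs other than transcripts, those named are the 10 largest rises and all falls past the rule of size, the 10 most counted, the SINE, spliced and unspliced rows described, and families past the rule; at most 2 transcript IDs are given each way. The 2 libraries, the lists and the rule were chosen with earlier results of these data known. Alternatives were other scalings, count minimums, folds and denominators. The grouping by tRNA length and the piece totals without the 10 most counted pieces were chosen after seeing the data. Other tools were matplotlib 3.10.9, scipy 1.17.1, pandas 2.3.3, numpy 2.4.6, Python 3.11.15 and R 4.3.3.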

Additional observations from a re-analysis of the deposited data

Results flagged for a closer look

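tRNA-iMet-CAT-3-1 moved in opposite directions in 2 comparisons. It was higher in D389N than in Dis3l2r, with a log2 ratio of 2.33 (95% counting interval 1.77 to 2.97), and lower in shDis3l2 than in shNS, with a log2 ratio of -1.23 (95% counting interval -1.83 to -0.64). Each side is 1 library, the row had 197 counts over the first pair, and the difference between the 2 ratios was not tested.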

How the results depend on the processing

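No paired analysis was possible because each group has 1 library; for the same reason none could be left out in turn. Of 379 rows, 26 were higher and 61 lower; counts followed the scaling and the thresholds. Higher and lower counts were 8 and 105 by whole-RNA totals, 28 and 58 with DESeq2 size factors, 9 and 93 by totals of all rows, 73 and 37 by exon totals, 10 and 86 by intron totals, 6 and 115 by totals without the most counted cell row, and 10 and 83 with TMM over the pair alone. They were 71 and 114 with a minimum of 20 counts, 17 and 16 with 500, 115 and 191 with none, 84 and 100 at 1.5-fold and 6 and 29 at 3-fold. Families higher were 5, against 1 by totals and 19 by exon totals.

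Class medians that changed sign are these. Spliced tRNA gave -0.31 by whole-RNA totals, -0.19 by all rows, -0.12 by intron totals, -0.38 without the most counted cell row and -0.077 with TMM over the pair. Unspliced rows gave -0.18, -0.061 and -0.25 by the first 2 and by the totals without that row. That last scaling also gave -0.048 for tRNA and -0.065 for SINE. The cause was not tested; each scaling shifts all ratios by 1 constant.

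The tRNA share of D389N and Dis3l2r out of all rows was 43.4% and 37.6%, and leaving out the most counted cell row it was 76.6% and 75.8%; the transcript share was 9.77% and 13.3%, and 13.8% and 17.7%. Lower exon pieces were 63 with TMM. With a minimum of 20 counts, pieces higher and lower were 3034 and 1162 (exon), 7263 and 18083 (intron) and 4048 and 2175 (UTR); with 500 they were 6 and 8, 64 and 331, and 37 and 19. Without the 10 most counted pieces, intron calls were 1493 and 2390.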
